A study of Arabidopsis thaliana with 12 samples.

Results

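The plastid chromosome of Arabidopsis thaliana encodes subunits of the photosynthetic complexes, the large subunit of rubisco, and parts of the plastid ribosome and RNA polymerase. Its genes were followed here in roots, on microarrays, through 69 probe sets. A gene was included when the array annotation gave a probe set to that gene alone and the gene lies on the plastid chromosome. Where several probe sets name the same gene, the brightest is taken, but here each of the 69 genes had 1. They stand among 22746 probe sets other than controls, of which 13436 were matched to a single gene of any compartment. The 69 genes comprise 7 for photosystem I and its assembly, 15 for photosystem II, 6 for the cytochrome b6f complex, 6 for the ATP synthase, 10 for the NADH dehydrogenase-like (NDH) complex and 1 for rubisco. A further 8 encode proteins of the small ribosomal subunit, 7 proteins of the large ribosomal subunit and 4 the plastid RNA polymerase, and 5 have other roles. Another 7 plastid genes have probe sets that name several entries of the plastid chromosome, and they were left out of the 69.

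Plastid genes are mostly transcribed in multi-gene units. A bacterial-type RNA polymerase, whose core the rpo genes encode, transcribes chiefly the photosynthesis genes, while phage-type polymerases encoded in the nucleus transcribe rpoB and several housekeeping genes. The long primary transcripts are then cut, spliced and edited by nuclear-encoded proteins. Most root plastids are not green and do not photosynthesise, but they make fatty acids, amino acids and starch and keep their own genome and ribosomes. Plastid messengers carry no stable poly(A) tail, whereas the manufacturer's labelling procedure primes from such tails. How closely the signals of these genes follow transcript abundance was not tested.

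The data hold 12 ATH1 arrays in 4 groups of 3: arr10 arr12 with trans-zeatin, arr10 arr12 with DMSO, wild type with trans-zeatin and wild type with DMSO. The double mutant carries the insertions SALK_098604 and SALK_054752 and lacks a pair of type-B response regulators, the transcription factors at the end of the cytokinin relay; the wild type was Col-0 (stock N1092). Trans-zeatin is a natural cytokinin and DMSO its solvent, and all plants had grown for 2 weeks on vertical Murashige and Skoog agar plates. The labels give no dose and no length of treatment, they call the tissue roots while the extraction protocol speaks of seedlings, and the titles of treated wild-type arrays read CK where those of treated mutant arrays read TZ.

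The labels could be checked only in part. No probe set was annotated to ARR10 or ARR12 (0 each), so the mutation itself could not be read. The treatment could: ARR15, an early cytokinin-induced regulator, averaged 22.6 in arr10 arr12 with trans-zeatin against 6.56 with DMSO, and 59.2 in the wild type with trans-zeatin against 10.5 with DMSO. Of 18 root markers, 3 had a probe set annotated to that gene alone. Among them PYK10, a beta-glucosidase of root endoplasmic reticulum bodies, had a mean signal between 3388 and 3794 in every group. All 5 leaf markers with such a probe set, of 41 listed, also lay above the filter on dim probe sets. The annotation did not list 8730 probe sets, so the other markers may be on the array unnamed. Median signals were between 39.3 and 41.6 on the 12 arrays, and log2 signals correlated at 0.976 to 0.991 between arrays of a group. Between arrays of different groups they correlated at 0.957 to 0.988, an overlapping range.

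Of the 69 plastid genes, 56 had a mean signal above 23.5, the level at which a probe set was tested. All 7 photosystem I genes, all 7 genes of the large ribosomal subunit, rbcL and the 5 genes of other roles passed it, as did 14 of 15 photosystem II genes, 5 of 6 for the ATP synthase, 4 of 6 for cytochrome b6f, 6 of 8 for the small ribosomal subunit and 3 of 4 for the polymerase. The NDH genes stood lowest in this count, with 4 of 10. The 13 genes below the filter were ndhE, ndhF, ndhG, ndhH, ndhJ, ndhK, atpI, petD, petN, psbN, rpoB, rps14 and rps16. Between probes the signal also depends on the probe sequence, so the levels of different genes are not ranked here.

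Before any comparison of groups, the wild-type arrays stood apart in these genes. For each array the deviation of every plastid gene from its own mean over 12 arrays was taken on the log2 scale, and the median over the 56 genes was read. It was 0.00, 0.04 and -0.01 in arr10 arr12 with trans-zeatin and 0.12, 0.18 and 0.11 in arr10 arr12 with DMSO. In the wild type it was 0.10, 0.11 and -0.24 with trans-zeatin and -0.42, -0.14 and 0.16 with DMSO. The mutant arrays of each treatment thus lay close together, while replicate 3 of wild type with trans-zeatin and above all replicate 1 of wild type with DMSO lay low. On that last array, the medians of the 8 classes with several genes above the filter, other than the mixed class, ran from -0.53 (photosystem I) to -0.22 (photosystem II), so every such class was low.

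**Figure D1:**
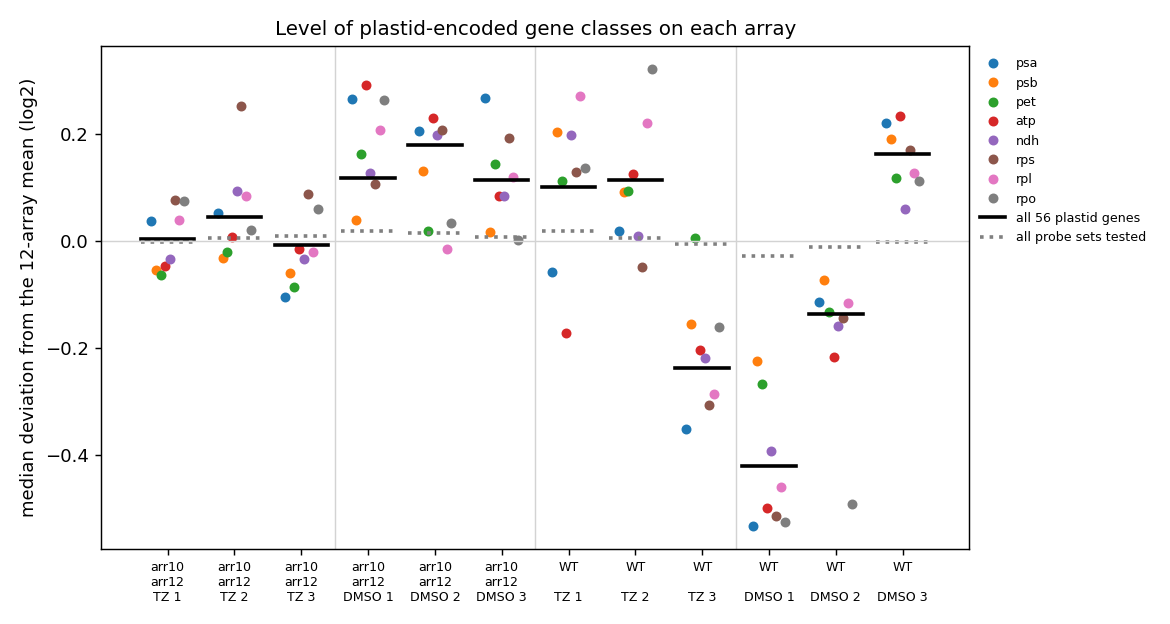
Median deviation of plastid-encoded genes from their mean over 12 arrays (vertical axis, log2) on each array (horizontal axis). Dots are medians of a gene class, black bars the median of the 56 plastid genes and dotted grey bars the median of all 13647 probe sets tested; the plastid bar falls to -0.42 on replicate 1 of wild type with DMSO, and the grey bars stay near 0.

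In each group the 3 replicates spread more in plastid genes than over all probe sets tested, and the excess was larger in the wild-type groups. The median SD between replicates on the log2 scale was 0.17 for the 56 genes in arr10 arr12 with trans-zeatin and 0.13 with DMSO, against 0.14 and 0.11 for all 13647 probe sets. In the wild type it was 0.24 with trans-zeatin and 0.31 with DMSO, against 0.10 and 0.13 for all probe sets. Among the 3 wild-type DMSO arrays, 47 of 56 plastid genes were lowest on replicate 1, as were 42.3% of all probe sets, and 49 of 56 were highest on replicate 3, as were 36.7% of all probe sets. Among the wild-type trans-zeatin arrays, 47 of 56 were lowest on replicate 3, as were 38.9% of all probe sets. The summed signal of the 69 genes was 12838 on wild-type DMSO replicate 1 (0.433% of all signal on that array) and between 14460 and 17387 on the other 11 arrays. The ratio of 3' to 5' signal of the actin control is a measure of RNA integrity that falls as more 5' signal is kept. It was lowest on that array, at 6.01, and between 8.96 and 16.8 on the others. The GAPDH and ubiquitin ratios of that array lay inside the range of the other arrays. Their part in the plastid result was not tested.

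The comparison of arr10 arr12 with the wild type under DMSO asks how the mutant roots differ without added cytokinin. Of the 56 plastid genes tested, 5 were higher in arr10 arr12 and none was lower. They were psaA and psaI of photosystem I, psbC of photosystem II, rbcL and the ribosomal gene rpl14. Over all 13647 probe sets, 5.00% were called in either direction and 2.02% were called higher in arr10 arr12. The median difference of the 56 genes was 0.28 on the log2 scale with 47 positive, against a median of 0.02 over all probe sets, of which 55.2% were positive. In 12 of the 56 genes all 3 mutant arrays lay above all 3 wild-type arrays, which was so for 15.5% of all probe sets. These p-values come from limma with Benjamini-Hochberg adjustment over all probe sets, on log2 of the signal after adding 6.65. Because the labels do not say that replicates came from separately grown plants, they measure only the spread between arrays. In whole roots, fewer cells of a type and less RNA per cell cannot be told apart.

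psaA encodes a reaction-centre protein of photosystem I. Its signal was 157, 153 and 142 on the arr10 arr12 DMSO arrays, against 63.6, 95.8 and 115 on the wild-type DMSO arrays. Each mutant array lay above each wild-type array, and the wild-type arrays differed widely among themselves. The difference was 0.71 ± 0.16 (SE, log2; adjusted p = 0.019).

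psaI, a small subunit of the same photosystem, had signals of 220, 213 and 255 in arr10 arr12 with DMSO, against 124, 141 and 178 in wild type with DMSO. The groups did not overlap, and the difference was 0.62 ± 0.16 (SE, log2; adjusted p = 0.038). The other 5 genes of the photosystem I class had positive differences from 0.25 to 0.43 that did not pass. Among them psaB, the partner of psaA in the reaction centre, averaged 528 ± 13.0 in arr10 arr12 and 404 ± 129 in wild type (SD, n = 3 each), and the groups overlapped. psaC, which binds iron-sulfur clusters at the stromal side, averaged 48.4 ± 8.20 in arr10 arr12 and 38.1 ± 10.9 in wild type (SD, n = 3 each). psaJ averaged 339 ± 39.1 in arr10 arr12 and 289 ± 74.9 in wild type.

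psbC encodes CP43, an inner antenna protein of photosystem II. It read 68.3, 68.2 and 61.4 in arr10 arr12 with DMSO, against 35.1, 37.7 and 53.3 in wild type with DMSO, and rose by 0.59 ± 0.13 (SE, log2; adjusted p = 0.019). No other photosystem II gene passed the test. The class of 14, psbC included, had a median of 0.08, with 11 positive, 3 negative and a range from -0.17 to 0.59. psbZ, chosen after its values were seen, read 85.9, 88.9 and 71.9 in arr10 arr12 against 52.9, 52.7 and 71.1 in wild type, without overlap (0.45 ± 0.16, SE, log2; adjusted p = 0.13). psbF, a cytochrome b559 subunit, averaged 443 ± 10.1 in arr10 arr12 and 450 ± 59.9 in wild type (SD, n = 3 each). psbA, for the D1 protein, averaged 87.6 ± 9.40 in arr10 arr12 and 82.9 ± 12.6 in wild type. psbM, a small subunit of the dimer interface, ranged widely in the mutant, with 1285, 839 and 1927 in arr10 arr12 against 1357, 1065 and 990 in wild type.

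rbcL, for the large subunit of the carbon-fixing enzyme rubisco, had signals of 143, 174 and 133 in arr10 arr12 with DMSO, against 96.2, 93.8 and 114 in wild type with DMSO. The groups did not overlap, and the difference was 0.53 ± 0.12 (SE, log2; adjusted p = 0.018). Wild-type DMSO replicate 1 was not the lowest array for this gene. Leaving it out gave 0.50 for rbcL, with an adjusted p of 0.079.

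Among the ribosomal genes, rpl14 of the large subunit read 85.7, 77.9 and 70.6 in arr10 arr12 with DMSO, against 30.7, 59.5 and 55.2 in wild type with DMSO, a difference of 0.66 ± 0.18 (SE, log2; adjusted p = 0.043). The 7 large-subunit genes had a median of 0.32, with 4 positive and 3 negative. rpl22 averaged 427 ± 24.9 in arr10 arr12 and 345 ± 60.2 in wild type, whereas rpl33 averaged 333 ± 51.9 in arr10 arr12 and 343 ± 61.9 in wild type (SD, n = 3 each). The 6 small-subunit genes also had a median of 0.32, and 5 were positive. rps15 had the largest difference of all 56 genes, 0.74 ± 0.21 (SE, log2), but an adjusted p of 0.055: it read 54.1, 51.4 and 44.7 in arr10 arr12, against 19.8, 27.5 and 36.2 in wild type, with no overlap. rps4 followed with 0.72 ± 0.21 (SE, log2; adjusted p = 0.057). rps3 and rps19 had smaller differences of 0.11 and 0.34 that did not pass.

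No polymerase, ATP synthase, cytochrome b6f or NDH gene passed the test under DMSO. The 3 polymerase genes above the filter had positive differences of 0.24 to 0.34. rpoC1, for the beta' subunit, averaged 197 ± 20.7 in arr10 arr12 and 156 ± 38.0 in wild type, while rpoA, for the alpha subunit, varied several-fold within each group (309, 143 and 416 in arr10 arr12 against 133, 396 and 191 in wild type). The 5 ATP synthase genes were positive by 0.21 to 0.58. atpB and atpE, for the catalytic-core subunits beta and epsilon, averaged 1436 ± 168 and 1052 ± 32.1 in arr10 arr12, against 1216 ± 208 and 919 ± 150 in wild type. The 4 cytochrome b6f genes were positive by 0.03 to 0.29. petB, for cytochrome b6, differed least, with a mean of 1328 ± 169 in arr10 arr12 and 1299 ± 71.6 in wild type, and petA, for cytochrome f, averaged 237 ± 31.6 in arr10 arr12 and 191 ± 12.7 in wild type. Among the genes of other roles, clpP, for the catalytic subunit of a protease, had a difference of -0.02, and matK, a splicing maturase, one of -0.12. A few more genes were chosen after their values were seen. accD, for a subunit of the acetyl-CoA carboxylase that starts fatty acid synthesis, averaged 218 ± 35.6 in arr10 arr12 and 149 ± 34.2 in wild type (SD, n = 3 each; adjusted p = 0.091). atpA, for the alpha subunit of the ATP synthase, averaged 617 ± 57.6 in arr10 arr12 and 426 ± 155 in wild type (adjusted p = 0.11). The 13 genes below the filter had differences from -0.23 to 0.33 in the fit without it, and none passed.

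**Figure D2:**
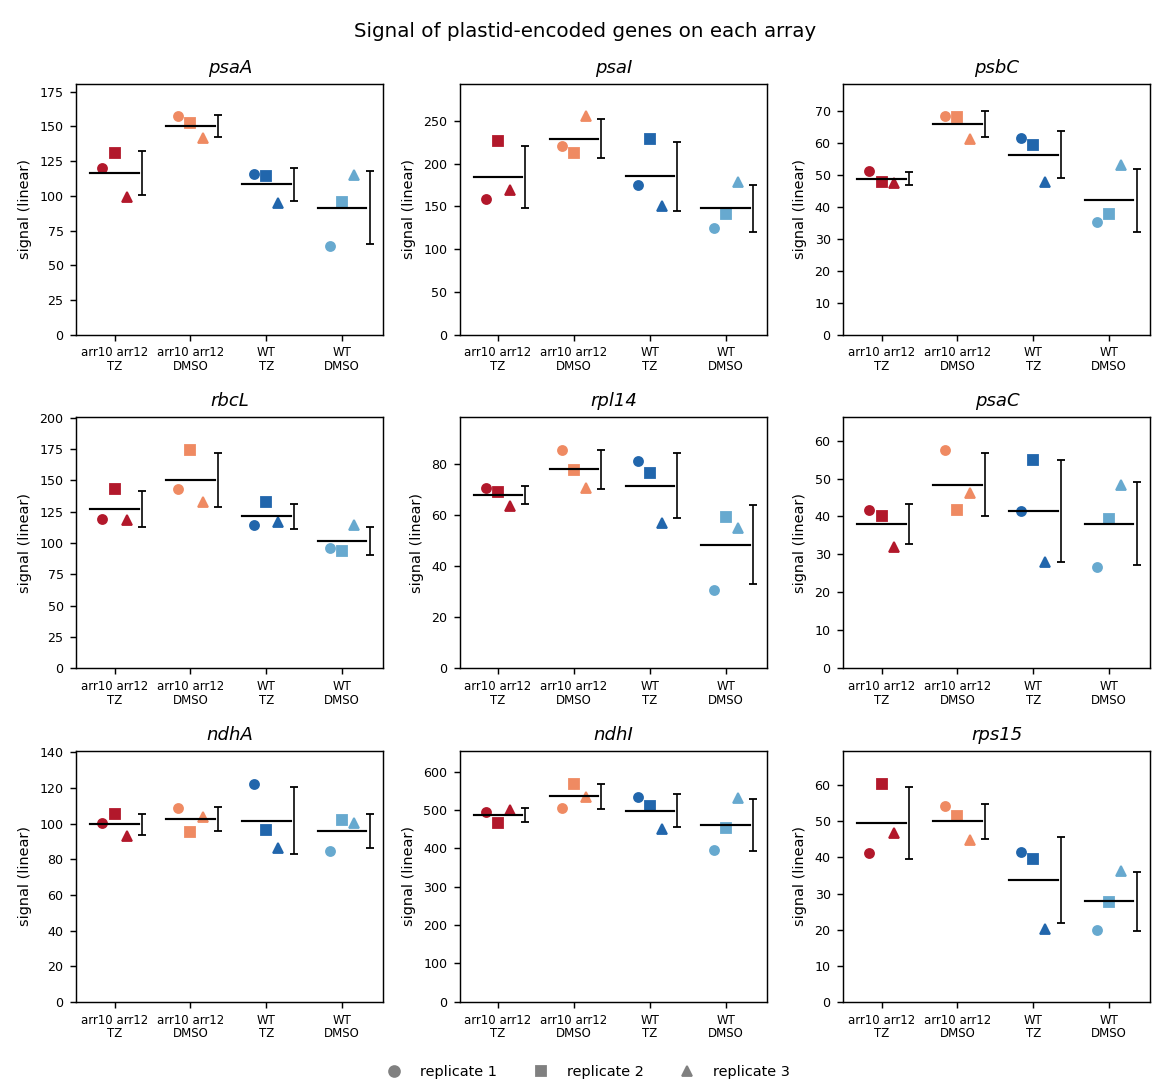
Signal on a linear scale (vertical axis) of 9 plastid-encoded genes on each array, by group (horizontal axis). Symbols give the replicate number, bars the mean and whiskers the SD of 3 arrays; in psaA, psaI, psbC, rbcL, rpl14 and rps15 the 3 arr10 arr12 DMSO arrays lie above the 3 wild-type DMSO arrays, and in psaC, ndhA and ndhI the groups overlap.

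This comparison leaned on single arrays. Without wild-type DMSO replicate 1, the 5 genes lost their calls and no other plastid gene was called; 39 of 56 were then positive with a median of 0.12, against 0.02 over all probe sets. psaA kept a difference of 0.49, psaI of 0.51, psbC of 0.49 and rpl14 of 0.40, with adjusted p from 0.075 to 0.17. Without wild-type DMSO replicate 2 only rpl14 was called, and without replicate 3, the brightest of the group in plastid genes, 16 were called, all higher in arr10 arr12, with a median of 0.42. Leaving out arr10 arr12 DMSO replicate 1 or replicate 2 also left 0 calls, and leaving out its replicate 3 left 3, with medians of 0.26, 0.24 and 0.28. The share of all probe sets called, 5.00% with all arrays, moved as well. It was 1.58%, 1.73% and 6.66% without wild-type DMSO replicates 1, 2 and 3. Without the mutant DMSO replicates 1, 2 and 3 it was 1.23%, 1.29% and 4.97%.

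**Figure D3:**
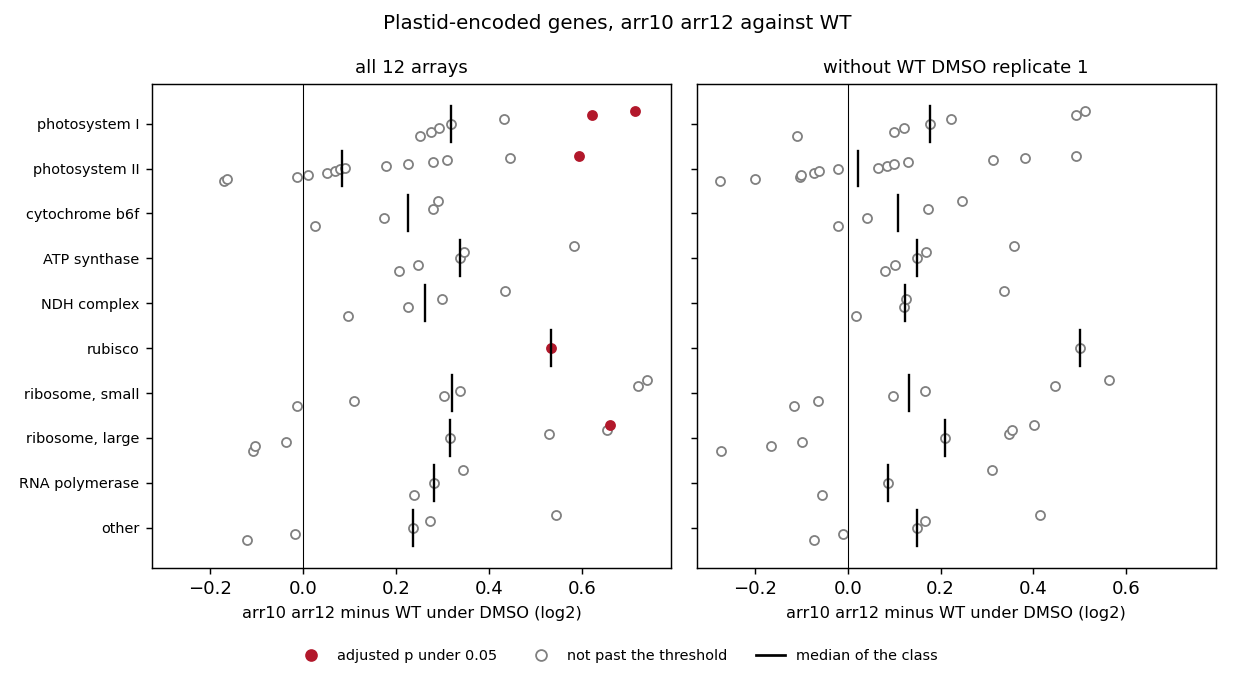
Difference between arr10 arr12 and wild type under DMSO (horizontal axis, log2) of the 56 plastid-encoded genes, by class (vertical axis), with all 12 arrays (left) and without wild-type DMSO replicate 1 (right). Filled circles are genes with an adjusted p under 0.05 and bars are class medians; the photosystem I median is 0.32 on the left and 0.18 on the right, and no circle on the right is filled.

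Genes from other compartments did not all move alike under DMSO. The 6 mitochondrial genes above the filter had a median of 0.23, near the 0.28 of the plastid genes, and 4 were positive. Their range was from -0.21 to 0.43, with 0 called (limma, 1 with an unadjusted p under 0.05). The 5 nuclear genes of photosynthesis with an annotated probe set were all lower in arr10 arr12, against 5.00% of all probe sets called in either direction. LHCB4.1, an antenna protein of photosystem II, averaged 200 in arr10 arr12 and 299 in wild type, a difference of -0.56 ± 0.09 (SE, log2; adjusted p = 0.004). RCA, the activase of rubisco, ATPC1, the gamma subunit of the chloroplast ATP synthase, and PSBY, a small photosystem II protein, differed by -0.55, -0.43 and -0.59 (adjusted p = 0.013, 0.025 and 0.022). PSAN, a lumenal subunit of photosystem I, averaged 70.8 in arr10 arr12 and 117 in wild type, a difference of -0.65 (adjusted p = 0.010). Of 26 nuclear genes of plastid transcription listed, 1, RPOTMP, had a probe set annotated to it alone, and it lay below the filter. The summed signal of the 5 genes was 591 to 666 on the mutant DMSO arrays and 858 to 1002 on the wild-type DMSO arrays, and 576 to 634 on the mutant trans-zeatin arrays and 788 to 834 on the wild-type trans-zeatin arrays. On wild-type DMSO replicates 1, 2 and 3 the median deviation of these nuclear genes was 0.33, 0.49 and 0.19. It was also positive on the wild-type trans-zeatin arrays (0.07, 0.18 and 0.02) and negative on every mutant array. On the same wild-type DMSO arrays the mitochondrial genes above the filter gave -0.29, -0.24 and 0.13, and the plastid genes -0.42, -0.14 and 0.16. Of the root markers, EXPA7 and EXPA18 are expansins of root hairs. They were lower in arr10 arr12 under DMSO by 0.55 and 0.49 on the log2 scale (limma, adjusted p = 0.035 and 0.036). PYK10 differed by -0.16 (adjusted p = 0.39). In wild type, EXPA7 and EXPA18 were also lower with trans-zeatin, by 0.67 and 0.43 (limma, adjusted p = 0.007 and 0.046). In arr10 arr12 neither passed that test. The part of tissue composition in the plastid differences was not tested.

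Several of the genes lie in one transcription unit, which runs from rps15 through ndhH, ndhA, ndhI, ndhG, ndhE and psaC to ndhD. The unit joins a ribosomal gene, subunits of the NDH complex, which carries electrons from stromal reductants into the plastoquinone pool, and the photosystem I gene psaC. Only rps15, ndhA, ndhI, psaC and ndhD lay above the filter. Their differences under DMSO, 0.74, 0.10, 0.23, 0.32 and 0.30, were all positive, and none passed the test. ndhA read 109, 95.5 and 104 in arr10 arr12 against 84.8, 102 and 100.4 in wild type, so the groups overlapped. ndhI read 505, 569 and 534 in arr10 arr12 against 396, 452 and 531 in wild type, with 1 mutant array inside the wild-type range. In a fit without the filter, ndhH, ndhG and ndhE had mean signals of 14.4, 13.5 and 17.5 in arr10 arr12 against 17.8, 14.3 and 15.0 in wild type, and differences of -0.23, -0.11 and 0.15. Members of the unit thus gave values between -0.23 and 0.74.

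Neighbours of other units also differed in size. In the unit of psaA, psaB and rps14, the difference under DMSO was 0.71 for psaA, 0.43 for psaB and -0.01 for rps14, which lay below the filter. The 7 genes of the unit around rpl14 and rpoA that could be followed had a median of 0.32 and a range from -0.11 to 0.66. In the unit of rps2, atpI, atpH, atpF and atpA, the 4 genes above the filter were positive by 0.30 to 0.58. The run of psbJ, psbL, psbF and psbE, chosen after its values were seen, gave -0.16, -0.17, -0.01 and 0.07.

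**Figure D4:**
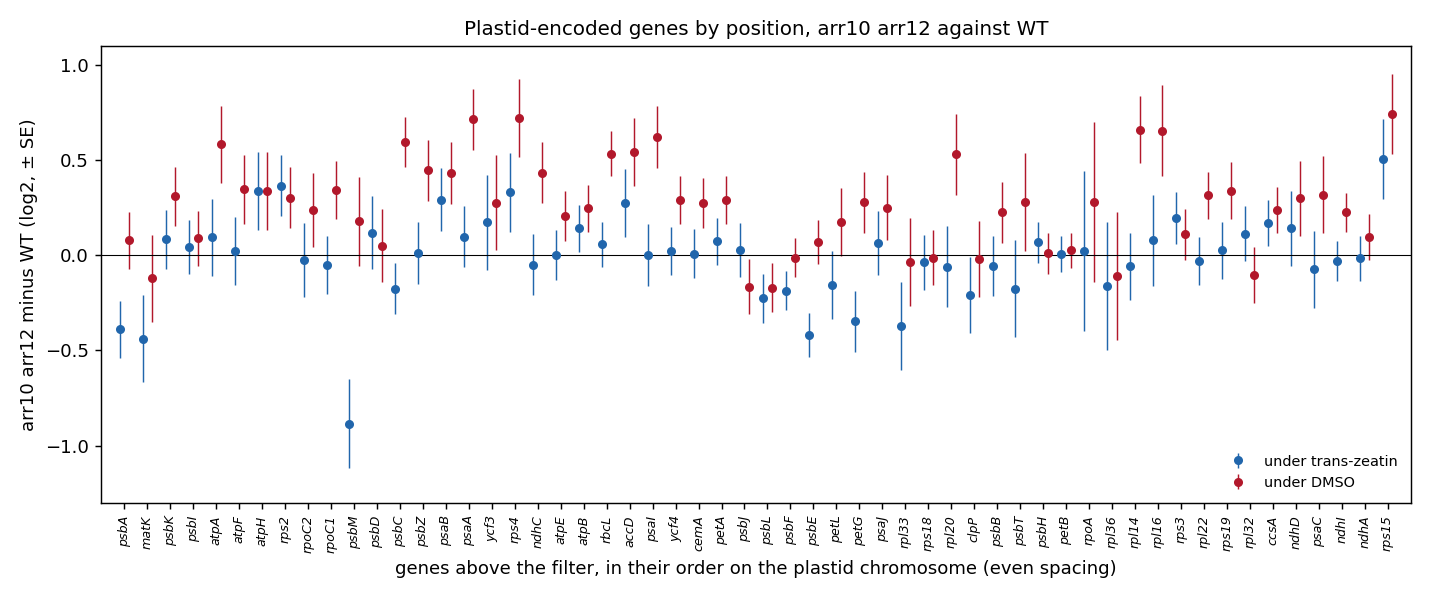
Difference between arr10 arr12 and wild type (vertical axis, log2, with SE) under trans-zeatin (blue) and under DMSO (red) of the 56 plastid-encoded genes, in their order on the chromosome at even spacing (horizontal axis). Most red points lie above 0 (47 of 56), while the blue points lie on both sides (32 above, 24 below), with psbM lowest at -0.89.

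Under trans-zeatin the genotypes gave no plastid call. Of the 56 genes 0 passed in limma, 6 had an unadjusted p under 0.05 (13.2% of all probe sets did), and 32 were positive with a median of 0.01, against 0.00 over all probe sets, of which 2.32% were called. The smallest p values belonged to genes of photosystem II. psbM read 888, 1260 and 718 in arr10 arr12 with trans-zeatin against 1573, 1698 and 1917 in wild type with trans-zeatin, a difference of -0.89 ± 0.23 (SE, log2; adjusted p = 0.061) without overlap. psbE, the other cytochrome b559 subunit, read 211, 179 and 184 in arr10 arr12 against 307, 249 and 223 in wild type, a difference of -0.42 ± 0.11 (SE, log2; adjusted p = 0.069). psbA averaged 63.3 ± 6.38 in arr10 arr12 and 86.2 ± 20.3 in wild type (SD, n = 3 each; adjusted p = 0.23). The 14 photosystem II genes had a median of -0.12 with 8 negative, and the 6 small-subunit ribosomal genes one of 0.26 with 5 positive. rps15 read 41.1, 60.5 and 46.8 in arr10 arr12 against 41.6, 39.7 and 20.1 in wild type, so that the groups overlapped (0.51 ± 0.21, SE, log2; adjusted p = 0.30). The sign of this median was not stable: it became -0.11, with 19 of 56 positive and psbE called, when wild-type trans-zeatin replicate 3 was left out. It became -0.02, with 26 positive and psbM called, when arr10 arr12 trans-zeatin replicate 2 was left out. Over all probe sets, 1.46% and 1.63% were called in those runs. The 5 genes called under DMSO gave 0.10 (psaA), 0.00 (psaI), -0.17 (psbC), 0.06 (rbcL) and -0.06 (rpl14) here.

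Trans-zeatin against DMSO was compared within each genotype to see how the plastid genes respond to the hormone. In arr10 arr12, 0 of 56 passed in limma while 1.24% of all probe sets did, and 5 had an unadjusted p under 0.05, as did 10.5% of all probe sets. The differences were small and mostly negative: 50 of 56 were below 0, with a median of -0.13, against -0.01 over all probe sets, of which 48.1% were positive. In 8 genes all 3 trans-zeatin arrays lay below all 3 DMSO arrays, which was so for 7.51% of all probe sets. psbC read 51.2, 47.7 and 47.6 with trans-zeatin against 68.3, 68.2 and 61.4 with DMSO (-0.39 ± 0.13, SE, log2; adjusted p = 0.23). psbA read 58.6, 60.6 and 70.5 with trans-zeatin against 81.0, 98.3 and 83.4 with DMSO (-0.43 ± 0.15, SE, log2; adjusted p = 0.23). Neither gene's groups overlapped, and psbE was the next at -0.26 (adjusted p = 0.41). All 7 photosystem I genes were negative, by 0.09 to 0.36 below 0, with psaA at -0.36 and psaC at -0.30. The 7 genes of the large ribosomal subunit had a median of -0.10 and the 4 NDH genes one of -0.13.

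In the wild type, 0 of 56 passed in limma while 8.64% of all probe sets did, and 10 had an unadjusted p under 0.05, as did 23.8% of all probe sets. Here 45 of 56 were positive, with a median of 0.09, against 0.02 over all probe sets, of which 55.2% were positive. rpl14 had the smallest p, at 81.4, 76.6 and 57.2 with trans-zeatin against 30.7, 59.5 and 55.2 with DMSO (0.54 ± 0.18, SE, log2; adjusted p = 0.074). psbC read 61.7, 59.2 and 47.9 with trans-zeatin against 35.1, 37.7 and 53.3 with DMSO (0.38 ± 0.13, SE, log2; adjusted p = 0.090). psbM was the third, with 0.61 ± 0.23 (SE, log2; adjusted p = 0.13) and no overlap. The large-subunit ribosomal genes had the highest class median, 0.40, with 6 of 7 positive, and the 3 polymerase genes one of 0.34. Classes of the photosynthetic complexes lay between 0.07 and 0.12. The sign of the overall median turned on 1 array: it became -0.03, with 24 of 56 positive and 0 called, when wild-type DMSO replicate 1 was left out. With wild-type DMSO replicate 3 left out it became 0.25, with 53 positive and 5 called, while 8.65% of all probe sets were called. Without wild-type DMSO replicate 1, the median of the large-subunit ribosomal genes was 0.17 and that of the polymerase genes 0.18. Those of cytochrome b6f and NDH genes were 0.03 and 0.01. Medians of photosystem I, photosystem II, ATP synthase and small-subunit ribosomal genes became -0.06, -0.01, -0.08 and -0.09.

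**Figure D5:**
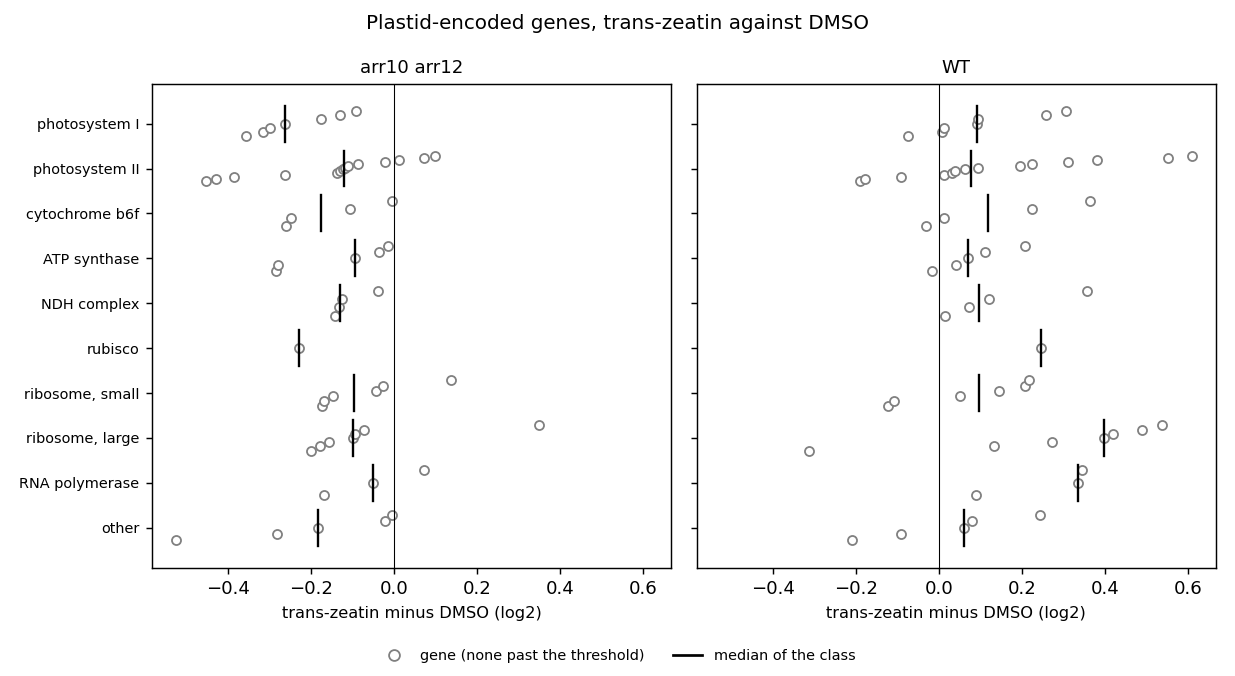
Difference between trans-zeatin and DMSO (horizontal axis, log2) of the 56 plastid-encoded genes by class (vertical axis), in arr10 arr12 (left) and in wild type (right). Circles are genes and bars class medians; 50 of 56 genes lie below 0 in arr10 arr12 and 45 of 56 above 0 in wild type, and none passed the test in either genotype.

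The difference between these responses, arr10 arr12 minus wild type, was tested as an interaction. Among the 56 plastid genes 0 passed in limma, while 0.0440% of all probe sets did, and 10 had an unadjusted p under 0.05, as did 10.8% of all probe sets. The median was -0.26 with 49 negative, against -0.02 over all probe sets. psbC had the smallest p, at -0.77 ± 0.19 (SE, log2; adjusted p = 0.19), followed by psbM at -1.06 ± 0.33 (adjusted p = 0.29) and psbE at -0.49 ± 0.16 (adjusted p = 0.32). Of the other genes called between genotypes under DMSO, psaA was at -0.62, psaI at -0.62, rbcL at -0.48 and rpl14 at -0.72, with adjusted p from 0.35 to 0.37. Without wild-type DMSO replicate 1 the median was -0.13 with 39 negative. The interaction and the single comparisons share arrays, so that their values for a gene are not independent.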

How the data were processed

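For each probe set the authors deposited 1 linear intensity per array. MAS5 and GCOS are named in the submitters' processing notes, without a version. The 2%-trimmed mean was 100.008 to 100.009 on every array, so the signals had been scaled by the authors and were used as deposited. Of 22810 probe sets, 64 controls were left out. An offset of 6.65, the 25th percentile, was added before log2, which understates changes of dim genes, and 13647 probe sets with a mean above the 40th percentile were tested. The model was fitted with limma (version 3.58.1, R 4.3.3) on all 12 arrays together, with 1 coefficient per group and an intensity trend, 2-sided, at an adjusted p of 0.05; genes below the filter come from the same fit without it. The test was tried on simulated data. The array annotation listed 14016 probe sets, and gene names and order came from a RefSeq gene table; the files name no genome build, so no coordinates are given.

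The genes and lists were chosen with earlier results of these data known. Named genes were psaA, psaC, ndhA, ndhI and rps15, the unit holding rps15, the 2 brightest of each class, and every gene called or the 3 with the smallest p in each comparison; rps4 and neighbours of psbE were added after their values were seen. Depth of an array is not a count, and precision is limited by the number of arrays.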

Additional observations from a re-analysis of the deposited data

How the results depend on the processing

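The median difference of the 56 plastid genes kept its sign under every alternative run for the genotypes under DMSO, for trans-zeatin in arr10 arr12 and for the interaction. It changed sign for trans-zeatin in wild type (0.09, with -0.03 to 0.25 when an array was left out) and for the genotypes under trans-zeatin (0.01, with -0.11 to 0.06 when an array was left out and -0.0052 with array weights). Under DMSO, 5 plastid genes were called between arr10 arr12 and wild type; without the filter on dim probe sets 3 were, without the filter and without wild-type DMSO replicate 1 (an alternative chosen after seeing the data) 0, and leaving out each array in turn gave 0 to 16. The count over all probe sets, 682, was 420 without the filter, 1321 with array weights and 168 to 909 with an array left out. Between genotypes under trans-zeatin, 0 plastid genes were called, against 1 with quantile normalization, 1 with only the groups compared and 0 to 1 with an array left out, and the total of 316 was 428 with array weights and 156 to 372 with an array left out. For trans-zeatin in wild type, 0 plastid genes were called, against 3 with array weights, 1 with only the groups compared and 0 to 5 with an array left out, and the total of 1179 was 2203 with array weights and 575 to 1364 with an array left out. In arr10 arr12, the total of 169 was 102 without the filter, 79 with only the groups compared and 67 to 197 with an array left out. The interaction total of 6 was 27 with array weights and 4 to 10 with an array left out. For trans-zeatin in arr10 arr12 and for the interaction, 0 plastid genes were called under every alternative run. The cause of these shifts was not tested.

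Replicate numbers are shared by the groups, and the main fit did not take them as pairing. Deviations of same-numbered arrays correlated at -0.07 to 0.34 (median 0.11), with 9 of 18 pairs over 0.1. Those of other-numbered arrays correlated at -0.35 to 0.18 (median -0.06), with 4 of 36 pairs over 0.1. All 12 arrays were on average nearer to those of their own number. With the replicate block, 7 plastid genes were called between genotypes under DMSO, while 6.84% of all probe sets were, against 5.00% in the main fit. Between genotypes under trans-zeatin 1 plastid gene was called, with a total of 484. The total for trans-zeatin in arr10 arr12 was 290. Averaging the probe sets of a gene changes nothing, since each gene had 1. With 3 arrays a group, dim genes are limited by signal over background.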

Other observations

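The 7 genes with a copy in each inverted repeat were read by 8 probe sets that name several entries. Under DMSO, rps7, a protein of the small ribosomal subunit, averaged 309 ± 22.5 in arr10 arr12 and 207 ± 83.2 in wild type (SD, n = 3 each), a difference of 0.64 on the log2 scale (limma, adjusted p = 0.11). The pair of probe sets for rps12, another small-subunit protein, gave 0.43 and 0.65 (limma, adjusted p = 0.18 and 0.11). rpl2, rpl23 and ycf1 gave 0.09, 0.16 and 0.18. ycf2 gave -0.18 in the fit without the filter. None of these probe sets passed the test in any of the 5 comparisons.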
